A study of Mus musculus with 9 samples.

Results

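A set of 10 genes of the YAP-TEAD pathway was followed through 3 mouse tumour lines. They were chosen by name, from knowledge of the pathway and with their levels in these libraries already seen: the co-activator genes Yap1 and Wwtr1, the DNA-binding factor gene Tead1, the target genes Ankrd1, Ccn2 (formerly Ctgf) and Ccn1 (formerly Cyr61), and the regulators Amotl1, Amotl2, Ajuba and Lats2. All 10 were among the 11046 genes of the count table, with Ccn2 and Ccn1 under these newer symbols. Because the levels were known when the genes were picked, their values are given as a description, with no p-value; counts of calls among them are set beside those over all genes and nothing is read from them.

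YAP, and its paralog TAZ from the gene Wwtr1, are transcriptional co-activators with no DNA-binding domain of their own. They act mainly on TEAD factors, which bind the sequence GGAATG, and they turn on genes for matrix proteins, growth factors and the cytoskeleton. The Hippo kinases (MST1 and MST2, then LATS1 and LATS2) phosphorylate YAP and TAZ and keep them out of the nucleus, and cell density, adhesion and tension set how far this happens. Several targets, among them Lats2, Amotl2 and Ajuba, encode regulators of the same pathway. Activity is therefore set largely by where the proteins are, which RNA levels do not measure.

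E0771-BrM is given in the labels as a triple-negative breast cancer line, B16F10-BrM as a melanoma line with mutant BRAF, and 482N1 as a non-small-cell lung carcinoma line; BrM stands for brain metastatic. Each had 3 libraries (A, B and C) of poly(A)-selected RNA from untreated cells in culture, all with WT as the genotype label. The labels do not say whether A, B and C were separate cultures, so the SDs, SEs and p-values may measure technical spread only, and each cancer type is represented by 1 line. E0771-BrM was grown in RPMI 1640 with HEPES and the others in DMEM, so line and medium cannot be told apart in its comparisons; culture density, on which the pathway depends, is not given in the sources used here.

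Total counts lay between 7332390 and 9293348 per library. Of 8 melanocyte markers 5 were in the table and were highest in B16F10-BrM, where Dct (dopachrome tautomerase) averaged 17216 ± 425 CPM. Of 10 lung markers 2 were in the table, of 11 mammary markers 4, and of 8 epithelial markers 2; the others, such as Nkx2-1, Epcam and Cdh1, were not analysed here. The keratin gene Krt18 averaged 4180 ± 223 CPM in 482N1, but E0771-BrM had 3, 0 and 6 counts of it and B16F10-BrM 0 in each library. Its partner Krt8 averaged 187.9 ± 18.7 CPM in E0771-BrM, had 2 counts in B16F10-BrM and averaged 3512 ± 132 CPM in 482N1. The 2 lung markers, Abca3 and Foxa1, were highest in 482N1, at means of 22.3 and 40.3 CPM. The 4 mammary markers were Gata3, Areg, Erbb2 and Foxa1, which is on both lists. They ran against the E0771-BrM label, with higher means in 482N1 than in E0771-BrM. Gata3 averaged 1.40 ± 0.27 CPM in E0771-BrM and 2.92 ± 0.69 in 482N1, Areg 47.5 ± 7.57 and 74.2 ± 8.39 CPM in the same order, and Erbb2 5.62 ± 1.09 and 23.2 ± 3.38 CPM. The Dct counts were 353, 29 and 263 in E0771-BrM libraries A, B and C, and 142, 14 and 148 in those of 482N1, or 0.0202% to 0.26% and 0.00979% to 0.109% of the B16F10-BrM level. These values are set beside the low counts below.

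The stretch before the transcription start of a gene is where TEAD factors are often studied in Ankrd1, Ccn1 and Ccn2. RefSeq's table for GRCm38.p6 (an earlier build than the GRCm39 of the counts) gave the 250 bases before the start for 8 of the 10 genes, in 10 windows; Ccn2 and Tead1 were not in it. Shown are Ankrd1, Ccn1, Amotl2 and Ajuba, the target and feedback genes whose window holds the TEAD motif, GGAATG or its reverse complement CATTCC. Each runs 5′ to 3′ on the gene's strand up to the base before the start, with the motif in capitals. The windows are chr19:36119845-36120094, minus strand, for Ankrd1, chr3:145649986-145650235, minus strand, for Ccn1, chr9:102717554-102717803, plus strand, for Amotl2, and chr14:54577662-54577911, minus strand, for Ajuba.
Ankrd1: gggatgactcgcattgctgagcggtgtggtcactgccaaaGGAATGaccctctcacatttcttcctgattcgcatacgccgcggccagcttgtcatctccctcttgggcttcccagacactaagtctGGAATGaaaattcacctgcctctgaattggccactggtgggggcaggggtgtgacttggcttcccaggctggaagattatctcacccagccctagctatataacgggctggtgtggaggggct
Ccn1: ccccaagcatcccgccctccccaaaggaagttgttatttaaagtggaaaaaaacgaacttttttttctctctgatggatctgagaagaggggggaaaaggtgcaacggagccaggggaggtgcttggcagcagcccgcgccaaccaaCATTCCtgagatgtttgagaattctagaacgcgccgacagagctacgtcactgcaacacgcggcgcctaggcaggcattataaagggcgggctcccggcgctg
Amotl2: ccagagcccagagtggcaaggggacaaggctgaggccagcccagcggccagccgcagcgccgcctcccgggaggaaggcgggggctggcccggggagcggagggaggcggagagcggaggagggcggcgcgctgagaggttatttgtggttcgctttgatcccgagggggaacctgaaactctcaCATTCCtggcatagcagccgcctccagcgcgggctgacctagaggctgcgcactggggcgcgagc
Ajuba: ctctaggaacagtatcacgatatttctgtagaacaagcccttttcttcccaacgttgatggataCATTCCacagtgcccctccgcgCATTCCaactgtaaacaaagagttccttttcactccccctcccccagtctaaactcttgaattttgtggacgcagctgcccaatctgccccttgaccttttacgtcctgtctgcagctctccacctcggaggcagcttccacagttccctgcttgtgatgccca

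Ankrd1 had 2 copies of the motif, starting 210 and 123 bases before the start, and Ajuba also had 2, at 186 and 164 bases. Ccn1 had 1 copy at 103 bases and Amotl2 had 1 at 65 bases. Yap1 and Wwtr1 held 1 copy each per window, and Amotl1 and Lats2 held none. So 6 of 8 genes had a match on either strand. Of the 8583 genes of the count table with such a window, 12.3% had a match. Of all 32851 windows of that length, 12.6% had 1 or more and 1.02% had 2 or more. The 8 were picked by name from the pathway, known targets among them, and nothing is read from this contrast. The AP-1 motif TGANTCA, its own reverse complement, was in the window of none of the 8, in 5.17% of those 8583 genes and in 6.75% of all windows. A match is only a match of letters, and no match says nothing about binding elsewhere.

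The 3 target genes set the lines apart most. Ankrd1 encodes a cardiac ankyrin repeat protein and is a widely used readout of YAP-TEAD activity. It had 7.36, 9.6 and 7.23 normalised CPM (counts scaled to library size) in E0771-BrM, no count in any B16F10-BrM library, and 582, 618 and 509 CPM in 482N1. The level was thus high in 482N1, low in E0771-BrM and undetected in B16F10-BrM, with no overlap. Against 482N1 the log2 fold change was -6.14 ± 0.11 (SE) in E0771-BrM, which is 70.3-fold lower. B16F10-BrM was at least 4972-fold lower than 482N1, and E0771-BrM at least 70.5-fold higher than B16F10-BrM, against a floor of 3 counts over the 3 libraries. The E0771-BrM counts were 58, 80 and 58, and library B, where Dct was lowest and Krt18 was at 0, had the most.

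Ccn2, which encodes connective tissue growth factor, a secreted matrix protein, was also a 482N1 gene. Its levels were 0.254, 0.24 and 0.623 CPM in E0771-BrM, 1.25, 0.627 and 1.63 CPM in B16F10-BrM, and 165, 164 and 157 CPM in 482N1. Only 9 reads in E0771-BrM (2, 2 and 5) and 31 in B16F10-BrM (12, 5 and 14) stand against 1238 to 1360 in each 482N1 library, and the highest E0771-BrM level lay just under the lowest of B16F10-BrM. The log2 fold change was -8.71 ± 0.19 for E0771-BrM against 482N1 (419-fold lower) and -7.08 ± 0.16 for B16F10-BrM against 482N1 (135-fold lower). With so few reads these SEs are likely too small. Leaving out 1 library gave -9.27 to -8.47 and -7.37 to -6.81 in the same order. E0771-BrM lay below B16F10-BrM by -1.63 ± 0.48, a difference that rests on few counts and was -2.20 without E0771-BrM library C (-9.27 against 482N1). So B16F10-BrM, which had no Ankrd1 read, had more Ccn2 than E0771-BrM, although both were far below 482N1.

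Ccn1 encodes CYR61, a matrix protein of the same family. It was much less abundant: 3.93, 2.64 and 3.49 CPM in E0771-BrM, 0.625, 0.125 and 1.05 CPM in B16F10-BrM, and 15.1, 14.2 and 14.2 CPM in 482N1. E0771-BrM was 4.32-fold below 482N1 (log2 fold change -2.11 ± 0.23) and B16F10-BrM 23.2-fold below it (-4.53 ± 0.31). E0771-BrM was 5.37-fold above B16F10-BrM (2.42 ± 0.39). The B16F10-BrM level rests on 6, 1 and 9 counts, and without its library C the values were -5.13 against 482N1 and 3.03 for E0771-BrM over B16F10-BrM. The order of the lower lines therefore differed among the targets: E0771-BrM exceeded B16F10-BrM in Ankrd1 and Ccn1 and lay below it in Ccn2.

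The 2 CCN genes also stood in different proportion to each other. Reads of Ccn2 per read of Ccn1 were 0.0645, 0.0909 and 0.179 in E0771-BrM, 2, 5 and 1.56 in B16F10-BrM, and 11, 11.5 and 11.1 in 482N1. These ratios did not overlap between lines, but those of the low lines rest on few reads. In B16F10-BrM a library had 1 to 9 Ccn1 reads, and in E0771-BrM 2 to 5 Ccn2 reads. Per kilobase of exon, 482N1 held 197 ± 19.3 CPM of Ankrd1, 56.6 ± 1.58 of Ccn2 and 7.18 ± 0.255 of Ccn1. The order in E0771-BrM was 2.79 ± 0.461 CPM per kilobase for Ankrd1, 1.66 ± 0.326 for Ccn1 and 0.13 ± 0.076 for Ccn2.

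**Figure D1:**
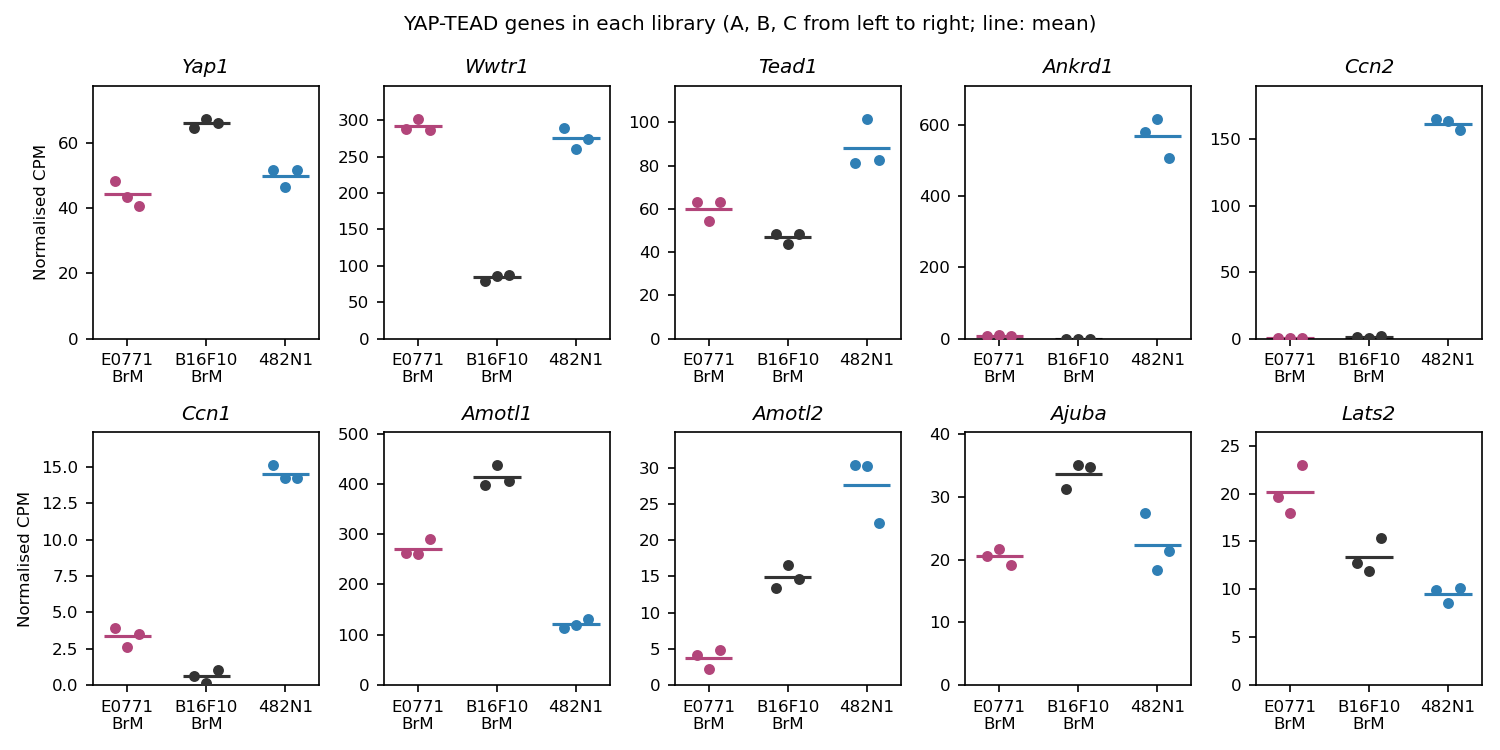
Normalised CPM (vertical axes, linear, from 0, each gene with its own scale) of the 10 genes in the A, B and C libraries of each line (E0771-BrM, B16F10-BrM and 482N1), with a line at each mean. Ankrd1, Ccn2 and Ccn1 stand high in 482N1 alone (Ankrd1 at 509 to 618 CPM), whereas Yap1 stays between 40.6 and 67.4 CPM in all 9 libraries.

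By mean level, neither co-activator gene had the order of Ankrd1, Ccn2 or Ccn1 over the lines, although Wwtr1 was lowest in B16F10-BrM, as were Ankrd1 and Ccn1. Yap1 had 48.5, 43.6 and 40.6 CPM in E0771-BrM, 64.5, 67.4 and 66.2 CPM in B16F10-BrM, and 51.8, 46.5 and 51.7 CPM in 482N1. B16F10-BrM, the line with no Ankrd1 read, thus had the most Yap1, and E0771-BrM overlapped 482N1. The log2 fold change was 0.40 ± 0.10 for B16F10-BrM over 482N1, -0.18 ± 0.10 for E0771-BrM over 482N1 and -0.58 ± 0.10 for E0771-BrM over B16F10-BrM. With a ratio of 1.49 between the highest and lowest line, Yap1 varied least of the 10 genes.

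Wwtr1 went the other way. Its levels were 289, 302 and 287 CPM in E0771-BrM, 79.5, 85.4 and 88.0 CPM in B16F10-BrM, and 289.8, 261 and 275 CPM in 482N1. B16F10-BrM stood below both other lines, whose libraries overlapped (log2 fold change of E0771-BrM over 482N1 0.09 ± 0.07). It was 3.27-fold below 482N1 (-1.71 ± 0.08), and E0771-BrM was above B16F10-BrM by 1.80 ± 0.08. Reads of Wwtr1 per read of Yap1 were 5.96, 6.94 and 7.07 in E0771-BrM, 1.23, 1.27 and 1.33 in B16F10-BrM, and 5.59, 5.63 and 5.31 in 482N1. Per kilobase of exon Wwtr1 exceeded Yap1 in every line: 61.3 ± 1.70 against 4.78 ± 0.428 CPM in E0771-BrM, 17.6 ± 0.912 against 7.13 ± 0.157 in B16F10-BrM, and 57.6 ± 2.97 against 5.40 ± 0.332 in 482N1. E0771-BrM and 482N1, with overlapping Wwtr1 and Yap1 levels, are the lines whose Ankrd1 differed 70.3-fold and whose Ccn2 differed 419-fold.

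Tead1 encodes 1 of the 4 TEAD factors. It had 62.9, 54.2 and 63.0 CPM in E0771-BrM, 48.5, 43.9 and 48.4 CPM in B16F10-BrM, and 81.1, 102 and 82.4 CPM in 482N1. It shared the order of Ankrd1 and Ccn1 over a much smaller range, 1.88-fold between the outer lines. The log2 fold changes were -0.56 ± 0.10 for E0771-BrM against 482N1, -0.91 ± 0.10 for B16F10-BrM against 482N1, and 0.35 ± 0.10 for E0771-BrM against B16F10-BrM.

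The other TEAD genes were not among the 10 genes and were tested with edgeR's quasi-likelihood test, Benjamini-Hochberg adjusted over all 11037 genes kept. They too were listed with earlier results of these data known, so their p-values are descriptive. Tead2 was lower than in 482N1 in both other lines: 13.9 ± 2.50 CPM in E0771-BrM, 26.7 ± 4.02 in B16F10-BrM and 95.4 ± 9.21 in 482N1, with adjusted p = 3.27e-24 for E0771-BrM (-2.78 ± 0.12) and 4.1e-19 for B16F10-BrM (-1.83 ± 0.11). Tead4 was the E0771-BrM gene, with 18.3, 19.9 and 23.1 CPM there and means of 1.95 ± 0.237 in B16F10-BrM and 3.59 ± 0.363 in 482N1. By edgeR it was higher in E0771-BrM than in 482N1 by 2.50 ± 0.20 (adjusted p = 9.85e-16) and than in B16F10-BrM by 3.38 ± 0.22 (adjusted p = 5.66e-19). Tead3 was scarce, at 1.64 ± 0.691, 2.74 ± 0.472 and 4.56 ± 0.432 CPM in E0771-BrM, B16F10-BrM and 482N1; its lower level in B16F10-BrM than in 482N1 (edgeR adjusted p = 0.0224) was lost with DESeq2 (adjusted p = 0.0527), without B16F10-BrM library C (0.0977) or 482N1 library C (0.0655), and with only library B of E0771-BrM and 482N1 (0.208).

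Per kilobase of exon, the most abundant TEAD gene was not the same in each line, a ranking that depends on the lengths used. These merge all annotated exons of a gene: 13570 bases for Tead1, 4788 for Tead2 and 3598 for Tead4. In CPM without this division, Tead1 led in E0771-BrM (60.0, Tead4 20.4) and B16F10-BrM (46.9, Tead2 26.7). In 482N1 Tead2 averaged 95.4 CPM and Tead1 88.4, with overlapping libraries. In E0771-BrM Tead4 had 5.67 ± 0.677 CPM per kilobase, Tead1 4.42 ± 0.371 and Tead2 2.91 ± 0.522. In B16F10-BrM Tead2 had 5.57 ± 0.841, Tead1 3.46 ± 0.193 and Tead4 0.542 ± 0.066. In 482N1 Tead2 stood at 19.9 ± 1.92, above Tead1 at 6.51 ± 0.845 and Tead4 at 0.999 ± 0.101. The spread between libraries leaves Tead4 and Tead1 close in E0771-BrM, with lowest Tead4 at 5.08 and highest Tead1 at 4.64 CPM per kilobase. Reads of Tead1 per read of Tead2 averaged 4.37 ± 0.473 in E0771-BrM, 1.78 ± 0.183 in B16F10-BrM and 0.926 ± 0.0751 in 482N1. Vgll4, which encodes a competitor of YAP and TAZ for TEAD, averaged 32.1 ± 6.35 CPM in E0771-BrM, 62.4 ± 8.04 in B16F10-BrM and 49.3 ± 1.72 in 482N1; by edgeR it was lower in E0771-BrM than in 482N1 (-0.62 ± 0.12, adjusted p = 8.19e-06) and than in B16F10-BrM (-0.96 ± 0.11, adjusted p = 5.47e-10). B16F10-BrM was above 482N1 by 0.34 ± 0.11 (edgeR adjusted p = 0.00501, and 0.0582 without B16F10-BrM library A).

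**Figure D2:**
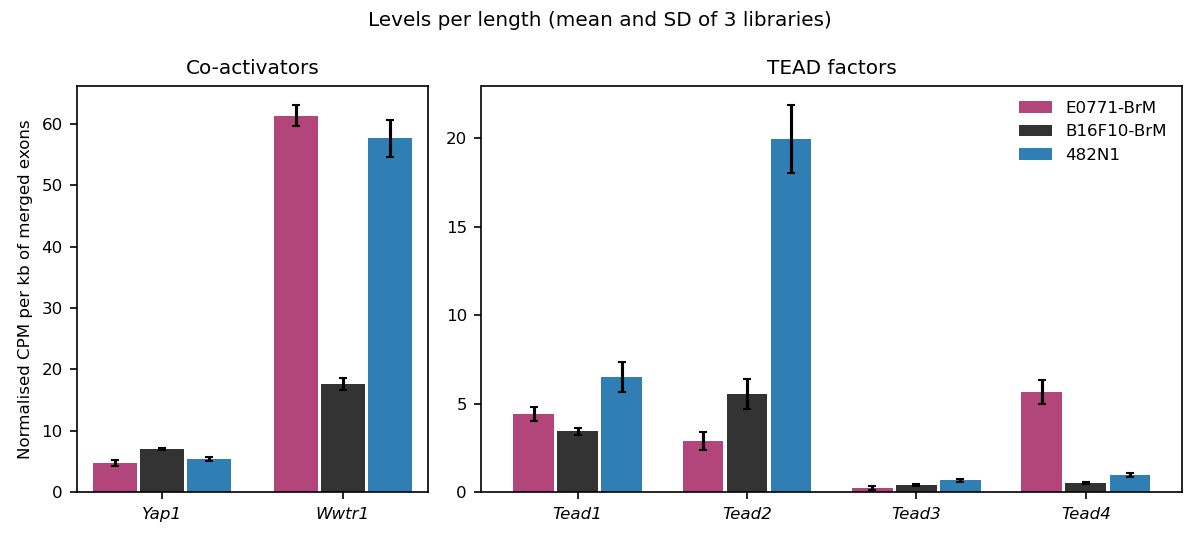
Normalised CPM per kilobase of merged exons (vertical axes, linear, from 0) of the co-activator genes (left) and the 4 TEAD genes (right) in E0771-BrM, B16F10-BrM and 482N1; bars are means and error bars the SD of 3 libraries. Wwtr1 is lowest in B16F10-BrM at 17.6, Tead2 leads in 482N1 at 19.9, and Tead4 reaches 5.67 in E0771-BrM.

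Amotl1 and Amotl2 encode angiomotin-like proteins, which bind YAP and TAZ at junctions and actin and hold them in the cytoplasm. The pair had different orders over the lines. Amotl1 had 263, 259.6 and 291 CPM in E0771-BrM, 397, 437 and 406 CPM in B16F10-BrM, and 113, 119.8 and 131 CPM in 482N1. Its order was the reverse of that of Ankrd1, with no overlap between lines: 3.41-fold higher in B16F10-BrM (log2 fold change 1.77 ± 0.08) and 2.24-fold higher in E0771-BrM (1.16 ± 0.08) than in 482N1. E0771-BrM lay below B16F10-BrM by -0.61 ± 0.07.

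Amotl2, which is also a YAP-TEAD target, had 4.19, 2.16 and 4.86 CPM in E0771-BrM, 13.3, 16.6 and 14.7 CPM in B16F10-BrM, and 30.3, 30.2 and 22.3 CPM in 482N1. Its order, 482N1 above B16F10-BrM above E0771-BrM, was that of Ccn2. E0771-BrM was 7.4-fold lower than 482N1 (-2.89 ± 0.20) and 3.97-fold lower than B16F10-BrM (-1.99 ± 0.21), and B16F10-BrM lay below 482N1 by -0.90 ± 0.16. With only library B of E0771-BrM and of 482N1, where Dct was lowest, E0771-BrM stood at -3.80 against 482N1 and -2.77 against B16F10-BrM. Reads of Amotl1 per read of Amotl2 were 62.8, 120.2 and 59.9 in E0771-BrM, 29.8, 26.4 and 27.7 in B16F10-BrM, and 3.71, 3.96 and 5.85 in 482N1.

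Amot itself, the third angiomotin gene, was nearly undetected in E0771-BrM (4, 1 and 1 counts), against means of 9.11 ± 0.401 and 9.20 ± 1.30 CPM in B16F10-BrM and 482N1. It was lower in E0771-BrM than in 482N1 by edgeR (-5.13 ± 0.38, adjusted p = 8.8e-17), whereas B16F10-BrM against 482N1 was not called (-0.01 ± 0.20, adjusted p = 0.954). The A library of E0771-BrM had the most Amot reads (0.508 CPM) and the most Dct reads (0.26% of the B16F10-BrM Dct level). Any link was not tested. Without library A of E0771-BrM the Amot values were -6.07 against 482N1 and -6.05 against B16F10-BrM. With so few E0771-BrM counts, the SE given for -5.13 is likely too small.

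Ajuba encodes a LIM-domain protein that binds LATS kinases at junctions and restrains them. It had 20.6, 21.7 and 19.2 CPM in E0771-BrM, 31.3, 35.0 and 34.7 CPM in B16F10-BrM, and 27.3, 18.4 and 21.4 CPM in 482N1. Only B16F10-BrM stood apart, as for Yap1. The log2 fold change was 0.59 ± 0.13 for B16F10-BrM over 482N1, -0.12 ± 0.13 for E0771-BrM over 482N1, and -0.71 ± 0.13 for E0771-BrM over B16F10-BrM. Its levels spanned 1.64-fold between lines. Its promoter window holds 2 matches to the motif, as does that of Ankrd1, and any role of these matches was not tested.

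Lats2 encodes the kinase that phosphorylates YAP and TAZ. It was the only one of the 10 genes with its highest level in E0771-BrM and no overlap with either other line: 19.7, 18 and 22.9 CPM, against 12.7, 11.9 and 15.4 CPM in B16F10-BrM and 9.93, 8.55 and 10.1 CPM in 482N1. E0771-BrM was 2.12-fold above 482N1 (1.08 ± 0.16) and above B16F10-BrM by 0.60 ± 0.15, and B16F10-BrM was above 482N1 by 0.48 ± 0.17. Its paralog Lats1 passed the edgeR threshold in no comparison, with 27.2 ± 3.79 CPM in E0771-BrM, 27.0 ± 1.06 in B16F10-BrM and 24.8 ± 3.15 in 482N1 (adjusted p between 0.333 and 0.943). Reads of Lats2 per read of Lats1 averaged 0.746 in E0771-BrM, 0.493 in B16F10-BrM and 0.392 in 482N1.

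Counts of calls for the 10 genes stand beside those for all genes. An edgeR call means an adjusted p below 0.05 over all genes tested. Between E0771-BrM and 482N1, 7 of the 10 genes were called, when 78.1% of all genes were: 2 were higher (37.7% of all genes) and 5 lower (40.4%). The libraries of those 7 did not overlap, as for 78.5% of all genes, and those of Yap1, Wwtr1 and Ajuba did. Between B16F10-BrM and 482N1 all 10 were called, against 77.8% of all genes, 4 of them higher (38%) and 6 lower (39.9%), and none overlapped (78.7% of all genes did not). Between E0771-BrM and B16F10-BrM all 10 were called, against 73.7%, with 5 higher (37.2%) and 5 lower (36.5%), and none overlapped (75.5%). Nothing is read from these shares, since the genes were picked with the levels known. Across all genes the median absolute log2 fold change was 0.79 in either comparison with 482N1 and 0.68 between the other lines.

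The 10 genes fell into a few orders over the lines. Tead1, Ankrd1 and Ccn1 ran 482N1, E0771-BrM, B16F10-BrM from high to low, and Ccn2 and Amotl2 ran 482N1, B16F10-BrM, E0771-BrM. Amotl1 ran in the reverse of the Ankrd1 order. Yap1 and Ajuba were highest in B16F10-BrM, Lats2 was highest in E0771-BrM, and Wwtr1 was low in B16F10-BrM alone. The ratio of highest to lowest line was 1.49 for Yap1, 1.64 for Ajuba, 1.88 for Tead1 and 2.12 for Lats2. It was 3.42 for Amotl1, 3.47 for Wwtr1 and 7.39 for Amotl2, and then 24.2 for Ccn1, 435 for Ccn2 and at least 4972 for Ankrd1.

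**Figure D3:**
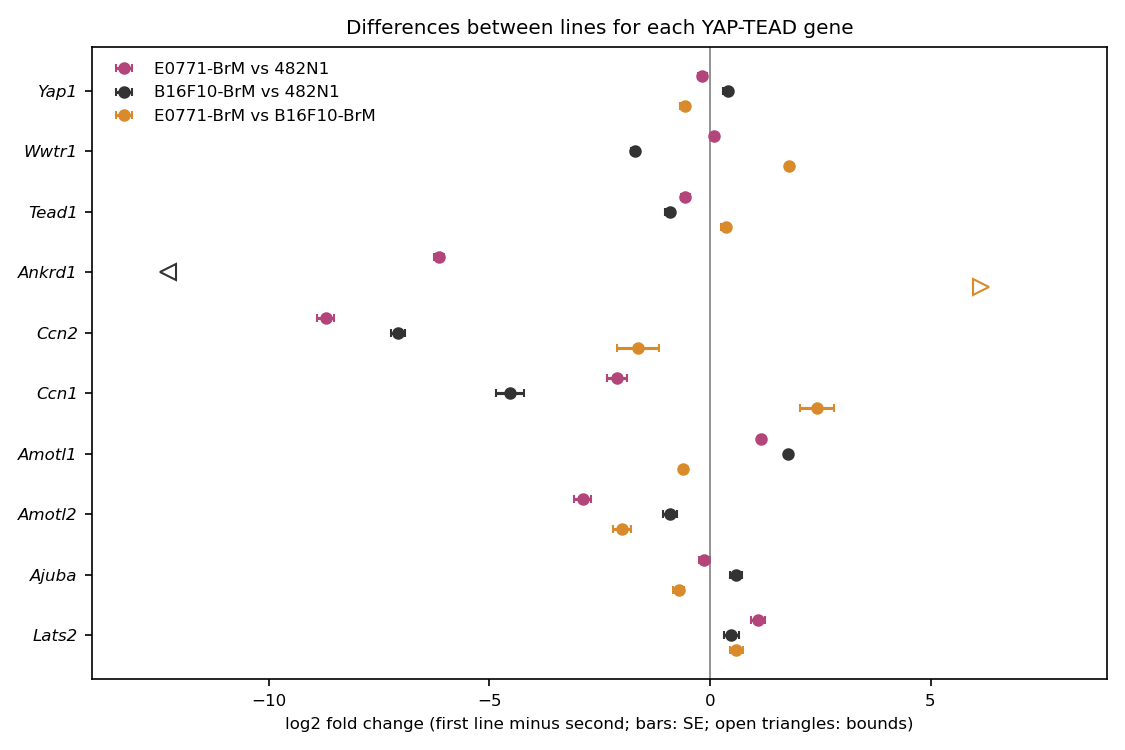
Log2 fold changes (horizontal axis; first-named line minus second) of the 10 genes in E0771-BrM against 482N1, B16F10-BrM against 482N1 and E0771-BrM against B16F10-BrM; points are estimates, bars SEs, and open triangles bounds where B16F10-BrM had no count. Ankrd1, Ccn2 and Ccn1 lie far to the left in both comparisons with 482N1 (Ccn2 at -8.71 and -7.08), while Amotl1 and Lats2 lie to the right.

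Genes outside the pathway lists that tracked each of the 10 most closely were found by the root mean square distance between centred log2 CPM over the 9 libraries, among 10224 genes. The nearest to Ankrd1 were Fbln2, which encodes the matrix protein fibulin-2 (distance 0.223), the thrombin receptor gene F2r (0.498) and the clusterin gene Clu (0.625). Fbln2 had 7.54 ± 0.853 CPM in E0771-BrM, 0 counts in B16F10-BrM and 411 ± 9.15 CPM in 482N1, and F2r was likewise at 0 counts in B16F10-BrM. Nearest to Ccn2 were Hes1 (0.647), Npnt (0.712) and Vldlr (0.721), of which Hes1, a Notch target, had 0.209 ± 0.259 CPM in E0771-BrM, 1.96 ± 0.339 in B16F10-BrM and 117 ± 5.24 in 482N1. Nearest to Ccn1 were Suox (0.251), Plcd3 (0.389) and Dbp (0.415). Nearest to Amotl2 was Nectin2 (0.22), an adhesion gene with 12.7 ± 3 CPM in E0771-BrM, 63.5 ± 2.75 in B16F10-BrM and 100.4 ± 9.03 in 482N1.

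The other genes of the set had closer neighbours by this distance, which tends to be smaller for genes that vary less between lines. Amotl1 was nearest to the histone chaperone gene Asf1b (0.0789), Hmgn2 (0.0996) and Magt1 (0.111). Wwtr1 was nearest to the phosphatase gene Ptpn12 (0.0825), Rtn4 (0.0988) and Rpl36a (0.102), all of them low in B16F10-BrM alone. The first neighbours of Yap1, Tead1, Lats2 and Ajuba were Nup62 (0.0576), Hnrnpul2 (0.0931), the citrate synthase gene Cs (0.0817) and Xrcc1 (0.0898). No 2 of the 10 genes shared a first neighbour. With 3 lines, a distance over 9 libraries mostly compares 3 levels, and nothing is read from it on shared function.

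Beyond the 10 genes, 94 of 119 listed pathway genes were in the table. By edgeR 37 rose and 46 fell in E0771-BrM against 482N1 (88.3% called), 27 rose and 55 fell in B16F10-BrM against 482N1 (87.2%), and 46 rose and 29 fell in E0771-BrM against B16F10-BrM (79.8%). The comparisons share libraries, and these shares are read only beside the 78.1%, 77.8% and 73.7% of all genes.

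A list of 17 YAP signature genes, drawn from published targets, had 13 in the table besides the targets above. In E0771-BrM against 482N1, 5 rose and 6 fell (median log2 fold change -0.38, against -0.04 over all genes). In B16F10-BrM against 482N1, 5 rose and 8 fell (median -1.39, against -0.04). In E0771-BrM against B16F10-BrM, 8 rose and 5 fell (median 0.47, against 0.02). Over all genes, 37.7% rose and 40.4% fell in E0771-BrM against 482N1, 38% rose and 39.9% fell in B16F10-BrM against 482N1, and 37.2% rose and 36.5% fell in E0771-BrM against B16F10-BrM.

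Axl and Myof repeated the Ankrd1 order. Axl, a receptor tyrosine kinase gene, averaged 48.8 ± 6.23 CPM in E0771-BrM, 1.73 ± 0.895 in B16F10-BrM and 461 ± 31.6 in 482N1; it fell in both against 482N1, by edgeR (-3.24 ± 0.10 in E0771-BrM and -8.08 ± 0.15 in B16F10-BrM, adjusted p = 3.81e-29 and 1.06e-36). Myof, the myoferlin gene, averaged 399 ± 16.3 CPM in E0771-BrM, 23.2 ± 0.879 in B16F10-BrM and 821 ± 27.3 in 482N1, and also fell in both lines against 482N1 (-1.04 ± 0.07 and -5.14 ± 0.09, edgeR adjusted p = 7.7e-19 and 6.26e-43). Nt5e, which encodes the ectonucleotidase CD73, had 2.86 ± 0.85 CPM in E0771-BrM, 1 count in B16F10-BrM and 3.73 ± 0.71 CPM in 482N1. The ratio of 482N1 to B16F10-BrM was 97.2, with a 95% counting interval of 17 to 3881, while the E0771-BrM and 482N1 libraries overlapped and were not called apart (-0.38 ± 0.31, edgeR adjusted p = 0.262). Like Ccn2, the tissue factor gene F3 was lowest in E0771-BrM, at 1.07 ± 0.261 CPM, against 2.19 ± 0.542 in B16F10-BrM and 5.97 ± 1.63 in 482N1.

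Rbms3 and Tgfb2 stood lowest in 482N1. Rbms3, an RNA-binding protein gene, averaged 14.5 ± 0.91 CPM in E0771-BrM and 25.1 ± 0.689 in B16F10-BrM, with 5 counts in 482N1 in all (edgeR log2 fold change 6.02 ± 0.33 and 6.81 ± 0.30, adjusted p = 5.84e-22 and 9.31e-26). On 5 counts these SEs are likely too small. Tgfb2, the ligand TGF-beta 2, averaged 9.54 ± 0.334 CPM in E0771-BrM, 17.5 ± 0.698 in B16F10-BrM and 1.89 ± 0.439 in 482N1 (2.33 ± 0.24 for E0771-BrM, edgeR adjusted p = 3.07e-12). The growth arrest gene Gadd45a was lowest in B16F10-BrM and averaged 25.4 ± 4.89 CPM in E0771-BrM, 3.07 ± 0.843 in B16F10-BrM and 18.3 ± 1.57 in 482N1. It was higher in E0771-BrM than in B16F10-BrM by 3.06 ± 0.19 (edgeR adjusted p = 2.85e-19).

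**Figure D4:**
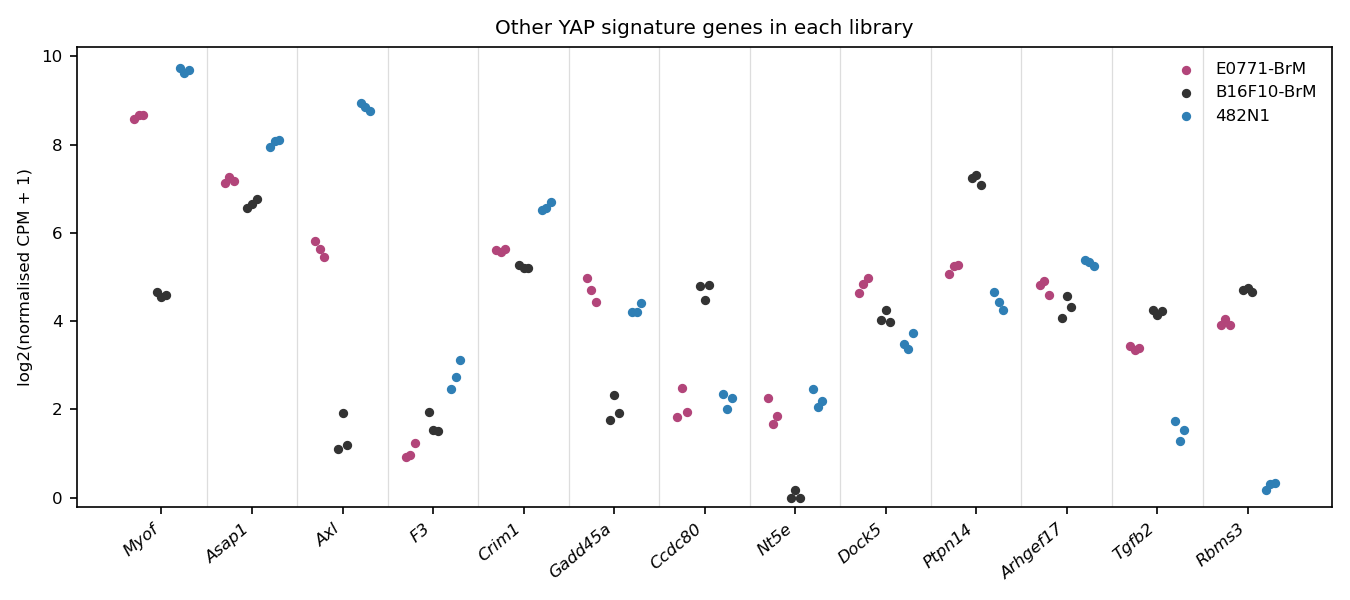
Level as log2(normalised CPM + 1) (vertical axis) of the 13 other YAP signature genes in each library of E0771-BrM, B16F10-BrM and 482N1; each point is 1 library. Axl and Myof are highest in 482N1 and lowest in B16F10-BrM (461 and 1.73 CPM for Axl), whereas Rbms3 and Tgfb2 are lowest in 482N1.

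Of 30 further genes cited as YAP or TAZ targets, 23 were in the table, of which 13 rose and 10 fell in E0771-BrM against 482N1 (median 0.80) and 8 rose and 14 fell in B16F10-BrM against 482N1 (median -0.65). In E0771-BrM against B16F10-BrM 13 rose and 5 fell (median 0.41). Like Ankrd1, the EGFR ligand gene Areg had no count in B16F10-BrM; it averaged 47.5 ± 7.57 CPM in E0771-BrM and 74.2 ± 8.39 in 482N1, so that B16F10-BrM was at least 649-fold below 482N1. Tns1, the tensin 1 gene, had 4.83 ± 1.37 CPM in E0771-BrM, 1 count in B16F10-BrM and 64.0 ± 6.95 CPM in 482N1.

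In other cited targets E0771-BrM or 482N1 stood apart. Marcks, which encodes an actin-binding protein kinase C substrate, had 4, 0 and 4 counts in E0771-BrM, with none in library B, where Dct was lowest, against 319 ± 18.4 CPM in B16F10-BrM and 229 ± 8.86 in 482N1 (edgeR log2 fold change -9.85 ± 0.18 and -9.37 ± 0.18, adjusted p = 2.77e-41 and 3.49e-40). The size of these Marcks folds rests on 8 reads, and their SEs are likely too small. Without library B of E0771-BrM the folds were -9.27 and -8.79, and for library B alone, at 0, no fold is given. Prss23 and Pmp22 had no count in E0771-BrM and were at least 64.8-fold and 61.7-fold below 482N1. Fstl1, which encodes a secreted glycoprotein, averaged 89.4 ± 3.68 CPM in E0771-BrM and 57.8 ± 3.88 in B16F10-BrM, against 0.549 ± 0.273 in 482N1 (7.32 ± 0.19 and 6.70 ± 0.20, edgeR adjusted p = 1.03e-34 and 1.91e-32). Its 482N1 level rests on 13 counts, so these SEs are likely too small. Fstl1 stood at 8.38 and 7.83 when E0771-BrM and 482N1 were each reduced to library B.

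Upstream of YAP and TAZ, 18 of 21 kinase genes and partners were in the table. Of these, 8 rose and 5 fell in E0771-BrM against 482N1 (median 0.12), 5 rose and 8 fell in B16F10-BrM against 482N1 (median -0.24), and 10 rose and 4 fell in E0771-BrM against B16F10-BrM (median 0.30). Nf2, the merlin gene, which activates the kinases, followed the order of Amotl1: 52.8 ± 6.88 CPM in E0771-BrM, 85.2 ± 4.26 in B16F10-BrM and 37.8 ± 3.79 in 482N1 (1.17 ± 0.10 for B16F10-BrM over 482N1, edgeR adjusted p = 9.12e-15). Its difference between E0771-BrM and 482N1 was not called with only library B of those lines (edgeR adjusted p = 0.479). Sav1, the scaffold of MST1 and MST2, was low in B16F10-BrM alone, like Wwtr1, at 33.6 ± 1.94, 18.2 ± 1.22 and 37.3 ± 3.33 CPM in E0771-BrM, B16F10-BrM and 482N1 (-1.03 ± 0.12 for B16F10-BrM against 482N1, edgeR adjusted p = 1e-10). Mink1, a kinase that can act on LATS, fell in both lines against 482N1, to 25.2 ± 1.83 CPM in E0771-BrM and 15.2 ± 2.39 in B16F10-BrM, against 55.7 ± 8.41. Map4k5, another such kinase, averaged 71.7 ± 5.18 CPM in E0771-BrM, 37.1 ± 1.66 in B16F10-BrM and 28.9 ± 1.33 in 482N1, the order of Lats2 (1.31 ± 0.10 for E0771-BrM over 482N1, edgeR adjusted p = 4.6e-16).

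A list of mostly junction and polarity genes, whose products the AMOTL proteins and Ajuba meet at the membrane, had 21 of 27 in the table. It also holds Amot, Wtip, Rassf1 and Rassf5, so its counts and medians are of a mixed set. Against 482N1, 14 fell and 5 rose in E0771-BrM (median -0.89), and 15 fell and 4 rose in B16F10-BrM (median -1.12). Over all genes 40.4% and 39.9% fell, and the median was -0.04 in both. In E0771-BrM against B16F10-BrM 10 rose and 8 fell (median 0.41). Patj, which encodes a tight-junction scaffold, had 1.96 ± 0.972 CPM in E0771-BrM, 993 ± 103 in B16F10-BrM and 34.4 ± 3.99 in 482N1 (edgeR log2 fold change of E0771-BrM over B16F10-BrM -8.99 ± 0.16, adjusted p = 2.88e-28). Its E0771-BrM counts were 19, 7 and 21, fewest in library B, as for Dct, and with only library B of E0771-BrM and 482N1 that value was -10.18. Wtip, a relative of Ajuba, had 1 count in E0771-BrM, 28.1 ± 1.85 CPM in B16F10-BrM and 4.89 ± 0.276 in 482N1. Rassf5, which encodes an MST1-binding protein, had 0, 2 and 2 counts in B16F10-BrM, against 13.3 ± 1.07 CPM in E0771-BrM and 10.3 ± 2.04 in 482N1. Pard6b, a polarity gene, was highest in 482N1, with 2.98 ± 0.61, 2.21 ± 1.03 and 13.1 ± 0.71 CPM in E0771-BrM, B16F10-BrM and 482N1.

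The STRIPAK complex is a phosphatase assembly that turns MST1 and MST2 off. Its list had 15 of 17 genes in the table, including Ppp1ca, which encodes a subunit of another phosphatase, PP1, outside the complex. Of these, 5 rose and 8 fell in E0771-BrM against 482N1 (median -0.31), 4 rose and 7 fell in B16F10-BrM against 482N1 (median -0.21), and 4 rose and 5 fell in E0771-BrM against B16F10-BrM (median -0.10). Strn, the striatin gene, was higher in both lines than in 482N1, at 31.2 ± 1.00 CPM in E0771-BrM, 33.5 ± 3.16 in B16F10-BrM and 11.9 ± 1.25 in 482N1. Slmap, the subunit that docks MST kinases, went the other way, at 78.4 ± 8.79, 75.2 ± 10.0 and 180.3 ± 15.5 CPM in the same order. Besides Tead1, 7 other TEAD factor and cofactor genes were listed, together called TEAD partners here. The 4 in the table (Tead2, Tead3, Tead4 and Vgll4) are described above: 1 rose and 3 fell against 482N1 in either line (medians -1.04 in E0771-BrM and -0.80 in B16F10-BrM). In E0771-BrM against B16F10-BrM, 1 rose, 2 fell and Tead3 was not called (edgeR adjusted p = 0.0535).

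**Figure D5:**
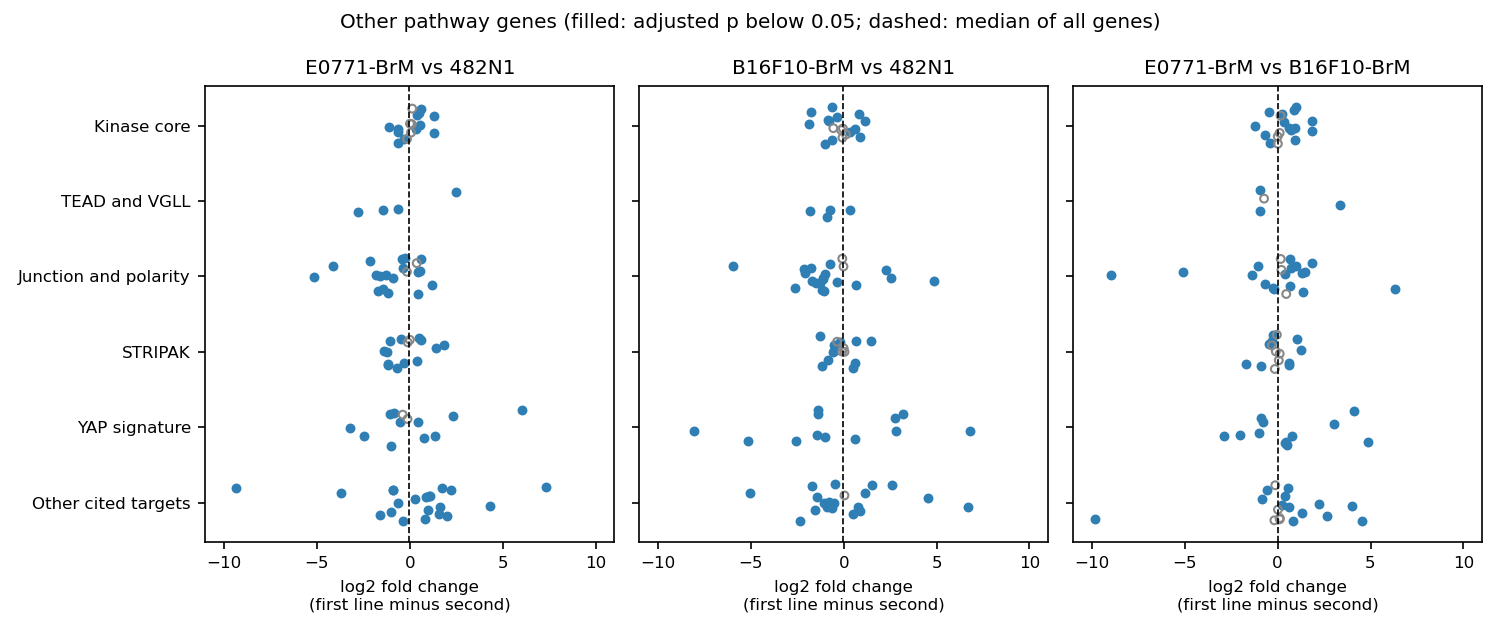
Log2 fold changes (horizontal axes; first-named line minus second) of the 94 other pathway genes by list in the 3 comparisons; each point is 1 gene, filled where the edgeR adjusted p was below 0.05, and the dashed line is the median of all genes. Genes with 3 counts or fewer in a line of a comparison (3 for E0771-BrM against 482N1, 4 for B16F10-BrM against 482N1, 7 for E0771-BrM against B16F10-BrM) are left out. Genes of the junction and polarity list lie mostly to the left of 0 in both comparisons with 482N1 (medians -0.89 and -1.12).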

How the data were processed

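Poly(A)-selected, stranded RNA-seq (TruSeq) of 3 lines, 3 libraries each, was analysed from the authors' deposited table of raw read counts per gene. Per the submitters' processing notes, FastQC, TopHat2 2.0.10, Bowtie 1.0.0, SAMtools 0.1.19, Cufflinks 2.2.1 and GRCm39 were used; the counting tool, its strand setting and the annotation are not given in the sources used here. The genes and lists were chosen with earlier results of these data known. Most named list genes were also picked by the test that gave their p-values, so these p-values are descriptive and not independent evidence.

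In R 4.3.3, edgeR 4.0.16 kept 11037 of 11046 genes (filterByExpr), scaled by TMM, and fitted all 9 libraries with 1 coefficient per line (robust quasi-likelihood F tests, 2-sided, Benjamini-Hochberg over all genes, threshold 0.05). The SE is the absolute log2 fold change over the root of F. Where a line had few reads and the fold was large, this SE can understate counting error, as for Ccn2, Marcks, Rbms3, Fstl1 and Amot. Levels are mean ± SD of 3 libraries. Per-kilobase levels used merged exon lengths of a GRCm38 annotation. A gene at 0 in a line was set against a floor of 3 counts over the line; with 1 to 3 counts a ratio with an exact 95% interval is given. Floors and intervals cover counting error only. Outside the 10 genes, those named were per list and comparison up to 4 called genes by size of log2 fold change, all TEAD partners, and the 3 nearest genes of each of the 10 (prior count 2); a selection is printed, and Lats1, as the paralog of Lats2, was added after its values were seen. A named gene of the lists is not reported here. Alternatives were DESeq2 1.42.0, limma 3.58.1 voom, other scalings and filters, a letter block, single libraries left out, only library B of 482N1 and E0771-BrM, and a test against a 2-fold change. The procedure was tested on simulated data.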

Additional observations from a re-analysis of the deposited data

How the results depend on the processing

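For the 10 genes, 531 values were recomputed under the alternatives; 517 moved by less than the spread between replicates, 14 by more, and no called value changed sign. Ajuba in E0771-BrM against 482N1, not called at -0.12, changed sign with only library B (0.24) and without 482N1 library A (0.043). Those moved most were Amotl2 (-3.80 and -2.77 for E0771-BrM against 482N1 and against B16F10-BrM) and Ccn2 (-9.33 and -2.24) when libraries A and C of both 482N1 and E0771-BrM were dropped, and Ccn1 without B16F10-BrM library C, as given above. Of 2014 values of named genes with a test, 1970 kept direction and call, 27 from 10 results lost the call and 8 from 3 gained it. The 9 that changed sign were of 4 differences not called: Amot in B16F10-BrM against 482N1 (0.047 with upper-quartile scaling, 0.013 with only library B, and -0.10 to 0.10 with 1 library left out), Slmap (-0.11 with only library B, -0.031 to 0.17 with 1 library left out) and Map4k3 (-0.058 to 0.30) in E0771-BrM against B16F10-BrM, and Map4k2 (-0.026 to 0.25) in E0771-BrM against 482N1.

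Against a 2-fold change, 3342, 3477 and 2905 genes were called in E0771-BrM against 482N1, B16F10-BrM against 482N1 and E0771-BrM against B16F10-BrM, in place of 8622, 8592 and 8131, since this asks for a larger difference. Of the pathway genes 15 rose and 21 fell, 14 rose and 28 fell, and 21 rose and 11 fell. With library letters as a replicate block, 8623, 8595 and 8162 genes were called and pathway counts were the same. Over all genes, the deviations of same-letter libraries were little correlated (-0.01 to 0.09). Such a correlation cannot show a shared shift in few genes, and Dct was lowest in library B of both E0771-BrM and 482N1 (29 and 14 counts). What the letters stand for is not given and was not tested. Leaving out 1 library gave 8282 to 8615, 8233 to 8600 and 7780 to 8191 calls. With only library B, 7175, 7682 and 7300 were called; 2 of 4 TEAD partners were then called in B16F10-BrM against 482N1. Calls lost without a single library were F3 between E0771-BrM and B16F10-BrM (without E0771-BrM A or B or B16F10-BrM A, edgeR adjusted p up to 0.113), Gadd45a between E0771-BrM and 482N1 (without E0771-BrM A, edgeR adjusted p = 0.0888), and those of Tead3 and Vgll4 given above; Pmp22, Mob1b and Stk24 each lost 1 call not printed above. The cause was not tested. Depth limits Ccn2, Ccn1 and Ankrd1 in the low lines, where few reads carry the value.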
